A study of Mus musculus with 16 samples.

Results

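NPC clone Ch3 was compared with the clones Ch5, Ch7 and Ch8 in all reads per gene, on and off chromosome 12, and in the reads of each parental allele. All 4 clones are neural progenitor cells (NPCs) derived from male F1 hybrid mouse embryonic stem cells, with the 129 genome inherited from the mother and the Cast genome from the father, and each was sequenced as 2 libraries made after depletion of ribosomal RNA. The members were the 2 libraries of Ch3 and the 6 libraries of the other clones, 8 of the 16 libraries of the series. The libraries were taken by the clone named in their labels, and Ch3 was set against the 3 others because of a measured property, a chromosome 12 that was fully Cast in Ch5, Ch7 and Ch8 and balanced between the alleles in Ch3. None of the 8 libraries carries a treatment or an engineered allele. The cells were kept in N2B27 medium with EGF and FGF2, and each clone came from 1 picked colony. The other 8 libraries, 5 of astrocytes and 3 of NPCs, were made from poly(A) RNA and are used here only as values set beside those of Ch3.

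In a hybrid cell, a read that covers a base differing between the strains can be assigned to its parental copy, so that the same library gives the expression level of a gene and the share of each allele. The allelic expression ratio, called Cast share here, is the percentage of allele-specific reads that come from the Cast copy. Most autosomal genes are read from both copies, and imprinted genes, in cells where the imprint acts, from the copy of 1 set parent. Genes with random monoallelic expression are read from either copy, and the choice is kept through cell divisions and differs between clones. NPCs are dividing cells that can give rise to neurons, astrocytes and oligodendrocytes. Chromosome 12 of the mouse carries the imprinted Dlk1-Dio3 domain, in which protein-coding genes such as Dlk1 are normally expressed from the paternal copy and the long noncoding RNA Meg3 from the maternal copy.

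Between 20871111 and 30920672 reads were counted on genes per library, of which 18.9% to 21.1% were allele-specific. Levels are given as CPM (read counts scaled to library size) after TMM normalisation, which scales the libraries to each other, and log2 differences are Ch3 minus the other clones. Ch3 is 1 clone, so the test set its summed libraries against the summed libraries of the 3 other clones, with edgeR's quasi-likelihood test and Benjamini-Hochberg adjustment over 19248 genes. The spread in that test comes from Ch5, Ch7 and Ch8, and whether Ch3 or the other clones departed from the cells they came from cannot be told apart. The labels do not say that the 2 libraries of a clone came from separate cultures, and p-values measure only the spread between these samples. A permutation of 1 clone against 3 cannot give a p under 0.25. All 14 neural progenitor markers were detected, with summed levels of 6049 to 6284 CPM in Ch3 and 6155 to 6954 in the other libraries, while 7 of 12 pluripotency markers had 10 or fewer reads over the 8 libraries. Of 4 Y-linked genes, Uty had 158 reads and Kdm5d 43 over all 8 libraries, and Eif2s3y and Ddx3y 1 each, where the clones are labelled male. The X-linked reads were 0.237% to 0.281% Cast, as in cells with the 129 X only.

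In total RNA, few genes passed the threshold between Ch3 and the other clones. Of the 19248 genes, 60 passed the threshold (0.312%), 35 higher (0.182%) and 25 lower (0.13%) in Ch3. More genes differed without passing. In 4109 genes (21.3%) both libraries of Ch3 lay outside the range of all other libraries, and DESeq2, another test on the clone sums, called 600. On chromosome 12, 4 of 500 genes passed (0.8%), of which 2 were higher (0.4%) and 2 lower (0.4%). On the other chromosomes 37 of 14409 passed (0.257%), with 18 higher (0.125%) and 19 lower (0.132%), and the other 19 have no RefSeq position (0.438% of 4339). Of the 35 higher genes, 11 were small RNAs or genes named only by a clone, such as copies of U1 and U2. Over the 454 such genes tested the median log2 difference was 0.67, against -0.01 over all genes. Their summed level was 52306 and 44621 CPM in the libraries of Ch3 and 33836 to 46930 in the others, so that the second library of Ch3 lay below the first of Ch7. The part of RNA preparation in these 11 differences was not tested. Among them, the U2 copy, which has no RefSeq position, had 7422 reads from 129 in Ch3 and 12, 8 and 11 in Ch5, Ch7 and Ch8. Its Cast reads were 525 in Ch3 and 933, 865 and 1161 in the others, which were 98.7% to 99.1% Cast. The fit depended on single libraries: 304 genes passed without the first library of Ch3 and 29 without the second, 330 without the first library of Ch7 and 24 without the second, and 40 and 87 without those of Ch5. It gave 46 and 27 without those of Ch8, 239 without clone Ch5, 382 without Ch7 and 63 without Ch8. With 8 libraries as separate samples, which takes libraries of a clone as independent, 953 genes passed, among them all 60.

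On chromosome 12, total expression was level while the allelic makeup was not. The median log2 difference over the chromosome 12 genes was -0.03 in all reads, and the medians of the other autosomes lay between -0.06 and -0.01. In Cast reads the chromosome 12 median was -1.03, against -0.08 to 0.00 on the other autosomes. The Cast share had a median of 49.8% in Ch3 and 100% in the 3 other clones, which still had 0.207% to 0.225% of 129 reads on this chromosome. This difference chose the clones and is given as a description. Against single clones, the chromosome 12 median of all reads was -0.03 for Ch5, 0.00 for Ch7 and -0.03 for Ch8. On chromosome 1 the Cast reads made up 32.2% to 32.6% in all 4 clones, so this chromosome did not separate Ch3, and the other autosomes had median Cast shares of 48.4% to 50.4%.

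**Figure D1:**
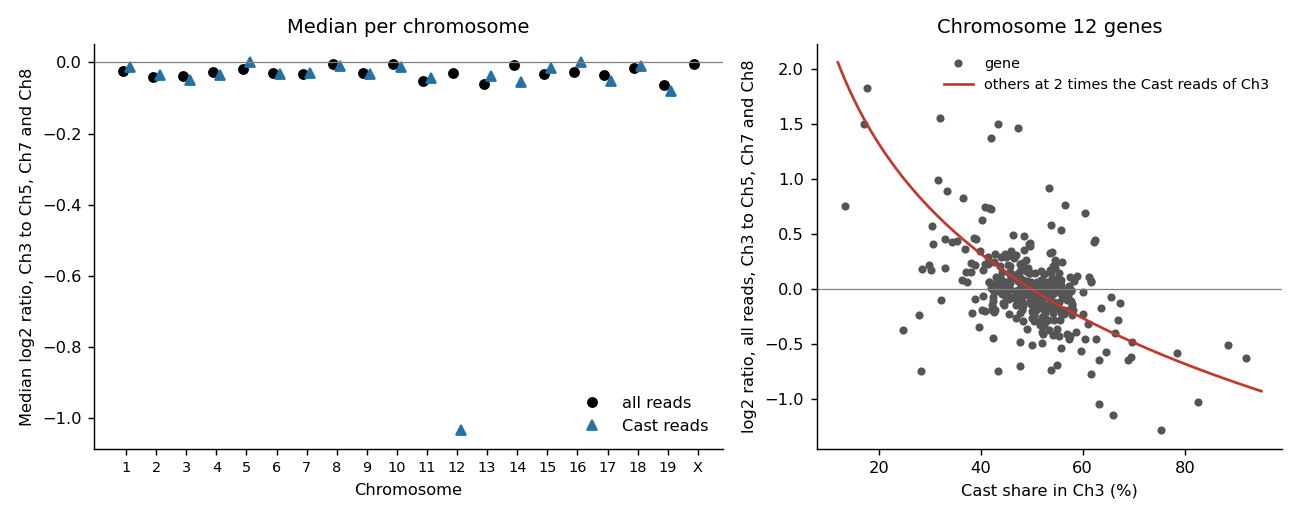
Left, median log2 difference of Ch3 minus the mean of Ch5, Ch7 and Ch8 per chromosome, for all reads and for Cast reads. Right, each chromosome 12 gene by its Cast share in Ch3 (x axis, percent) and its log2 difference in all reads (y axis), with a line where the others would have 2 times the Cast reads of Ch3. Chromosome 12 stands at -1.03 in Cast reads and at -0.03 in all reads, and genes with a low Cast share in Ch3 lie higher than genes with a high one.

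Within chromosome 12, genes differed in total according to the allele that Ch3 used. Among 347 genes with over 95% Cast reads in the 3 other clones, the Cast reads of Ch3 had a median log2 difference of -1.02 (interquartile range -1.17 to -0.86) and all reads one of -0.02. The 18 genes with a Cast share under 35% in Ch3 had a median log2 difference of 0.42 in all reads, and 14 of them lay above 0. The 316 genes between 35 and 65% had a median of -0.02. All 13 genes over 65% Cast in Ch3 were below 0, with a median of -0.58. In 9 of the 18 genes both libraries of Ch3 lay above all 6 others, and in 9 of the 13 below them, where 14% of the chromosome 12 genes did not overlap upwards and 17.2% downwards. Across the 347 genes, the log2 difference correlated with the value given by 2 Cast copies of equal output in the others (Pearson's r = 0.52, Spearman's rho = 0.42). The correlation and the counts by Cast share both set reads of Ch3 against the same reads of Ch3. Genes are not independent replicates, so the counts and the correlation are descriptions. With the Cast share taken from the 3 poly(A) NPC libraries in place of Ch3, r was 0.42 and rho 0.37 over 344 genes. Of these libraries, F5 was itself unbalanced, with a median of 65.6% Cast on chromosome 12 against 49.2% in mG2 and 48.9% in mG6. The genes under 35%, at 35 to 65% and over 65% Cast in Ch3 had median poly(A) shares of 44.2%, 54.2% and 67.4%.

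Single genes showed the range. Ccdc88c, a signalling adaptor gene, had a Cast share of 17.2% in Ch3 and a log2 difference of 1.5 in all reads. The long noncoding RNA 1110002L01Rik (chromosome 12, 3403883 to 3426747) had 10.8 and 12.3 CPM in Ch3 against 3.65, 2.89, 3.12, 3.77, 2.86 and 3.37 in Ch5, Ch7 and Ch8, with no overlap. It rose by 1.82 on the log2 scale (SE 0.18, edgeR adjusted p = 0.033), and 17.7% of its 153 allele-specific reads in Ch3 were Cast (95% Wilson interval 12.4 to 24.5%, counting error only). In the 3 poly(A) NPC libraries its mean Cast share was 7.80%. It was chosen after its values were seen, since the naming rule left it out. At the opposite end, L3hypdh was 92.1% Cast in Ch3 with a log2 difference of -0.63. Dhrs7 (chromosome 12, 72650353 to 72664828), a short-chain dehydrogenase gene, had 8.71 and 8.01 CPM in Ch3 against 18.9, 21.6, 19.7, 19.5, 18.3 and 22.4. Its levels did not overlap, the log2 difference was -1.28 (SE 0.15, edgeR adjusted p = 0.045), and 75.4% of its reads in Ch3 were Cast (Wilson interval 67.3 to 82.0%).

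The imprinted Dlk1-Dio3 domain was the clearest qualitative difference on chromosome 12. Meg3 (chromosome 12, 109540996 to 109571729) had 1.66 and 1.89 CPM in the libraries of Ch3 and 0 in all 6 others. Ch3 held 87 Meg3 reads and the 3 other clones 0, so Meg3 was at least 98.2-fold higher, with a floor of 3 reads over the other clones together (edgeR adjusted p = 0.046). Of the 22 allele-specific reads of Meg3 in Ch3, 20 came from the 129 copy and 2 from Cast (9.09% Cast, Wilson interval 2.53 to 27.8%). The poly(A) NPC libraries of F5, mG2 and mG6 held 26, 50 and 131 Meg3 reads, and the astrocyte libraries 0 to 4.

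Dlk1 (chromosome 12, 109452485 to 109463336), which encodes a membrane protein of the Notch ligand family, was read mostly from the 129 copy in Ch3. It had 2.57 and 2.97 CPM in Ch3 and 1.15, 1.96, 1.44, 1.15, 1.06 and 1.42 in the others. All libraries of Ch3 lay above the rest, but the log2 difference of 1.04 (SE 0.26) did not pass the threshold (edgeR adjusted p = 0.19). In Ch3, 40 of 42 allele-specific reads were 129 (4.76% Cast, Wilson interval 1.32 to 15.8%). In Ch5, Ch7 and Ch8 all 18, 22 and 17 allele-specific reads were Cast. These clones were chosen for a fully Cast chromosome 12, which fixed that outcome, so it shows no choice of allele at Dlk1. These counts are low, and both genes lay at under 3 CPM in every library. Rtl1 had no reads in the 4 clones and Dio3 1 read, in Ch8.

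Off chromosome 12, Gria4 and Cybrd1 had the largest rises on the log2 scale among the genes with a RefSeq position, and Grik3, another glutamate receptor gene, also rose. Gria4 (chromosome 9, 4417893 to 4796234), a subunit of AMPA glutamate receptors, had 44.8 and 39.1 CPM in Ch3 and 1.32, 0.847, 0.974, 1.44, 0.235 and 0.115 in the others. The groups were far apart, with a log2 difference of 5.63 (SE 0.61, edgeR adjusted p = 0.038), and Ch3 read both copies, with 177 Cast and 205 129 reads. Gria4 varied widely elsewhere, from 7.28 to 1109 CPM, unnormalised, in the 8 poly(A) libraries. Grik3 (chromosome 4, 125490259 to 125714173), a kainate receptor subunit, had 20.6 and 20.9 CPM against 8.07, 7.28, 6.78, 5.47, 7.51 and 7.32. It rose by 1.54 on the log2 scale (SE 0.18, edgeR adjusted p = 0.045), and was mostly 129 in all 4 clones.

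Over the 22 glutamate and GABA receptor genes tested, Gria4 and Grik3 passed, 9 had both libraries of Ch3 above all others and 3 below, with a median log2 difference of 0.28 against -0.01 over all genes. Over all genes 10.5% did not overlap upwards and 10.8% downwards. Gria2, another AMPA subunit, had 60.7 CPM in Ch3 and 22.1 ± 9.13 (SD, n = 3 clones) in the others, with an edgeR adjusted p of 0.25. Grin2b, an NMDA receptor subunit, had 2.67 and 2.38 CPM in Ch3 and 7.51 to 19.2 in the others (log2 difference -2.27, edgeR adjusted p = 0.062). Markers of neurons went only partly the same way. Their summed level was 1296 to 1401 CPM in Ch3 and 953 to 1302 in the others. Most of it was Map2, with 60280 reads in Ch3, where Gap43 was next with 3203. Of the 10 markers, 4 did not overlap upwards and 0 downwards, and the median log2 difference was 0.38. By edgeR, 0 of the 10 passed the threshold and 3 had an unadjusted p under 0.05. Defining neuron markers were low, with Snap25 at 1.00 CPM and Dcx at 10.1 CPM in Ch3 against 4 in the others. Rbfox3 and Stmn2 went the other way, with 32 and 6 reads in the 2 libraries of Ch3 against 165 and 34 in the 6 others. Tubb3 differed by 0.10 on the log2 scale. Whether neuron-like cells had a part in these differences was not tested, and in bulk RNA more cells of a type cannot be told apart from more RNA per cell.

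Cybrd1 (chromosome 2, 71118054 to 71142926), a membrane ferric reductase, had 13.8 and 12.5 CPM in Ch3 and 0.101, 0.269, 0.336, 0.444, 0.235 and 0.307 in the others. The groups did not overlap, the log2 difference was 5.52 (SE 0.33, edgeR adjusted p = 0.0083), and 380 of its 382 allele-specific reads in Ch3 were 129 (0.524% Cast, Wilson interval 0.144 to 1.89%). In the other 8 libraries it lay at 0.106 to 0.561 CPM. Fbln2 (chromosome 6, 91212460 to 91272540), a matrix protein, had 31.8 and 33.4 CPM against 9.29, 11.3, 9.71, 9.65, 8.22 and 8.24. It rose by 1.79 on the log2 scale (SE 0.16, edgeR adjusted p = 0.026), and its Cast share was 46.1% in Ch3 (Wilson interval 42.8 to 49.4%) against 10.3%, 7.46% and 10.9% in Ch5, Ch7 and Ch8. Its Cast reads thus differed by 3.96 and its 129 reads by 0.95 on the log2 scale. Fbln2 stayed past the threshold under all the alternatives, as did Cybrd1.

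Other named genes rose as well. Bmp7, a secreted growth factor of the BMP family, had 38.8 and 38.0 CPM in Ch3 and 12.5 ± 2.37 (SD, n = 3 clones) in the others (log2 difference 1.60, edgeR adjusted p = 0.048). Cgas, the cytosolic DNA sensor, had 6.80 and 5.28 CPM against 1.15 ± 0.227, a log2 difference of 2.34 (edgeR adjusted p = 0.044). Atp1b1, a sodium pump subunit, had 31.9 and 29.0 CPM against 11.5 ± 1.21, Lbh 93.2 and 83.5 against 36.0 ± 4.84, and Chn2, a GTPase-activating protein, 53.8 and 55.2 against 22.5 ± 2.65. The small nucleolar RNA Snord65 had 48.6 and 88.5 CPM against 27.8 ± 3.23, which belongs to the small RNAs described above. By allele, counting a copy with 20 or more reads over the 4 clones, 12 of the 18 higher genes off chromosome 12 had at least 1.5-fold more reads from both copies. Cybrd1 and Ddit4l had them from the 129 copy only, 2 genes from neither, and 2 had too few allele-specific reads.

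**Figure D2:**
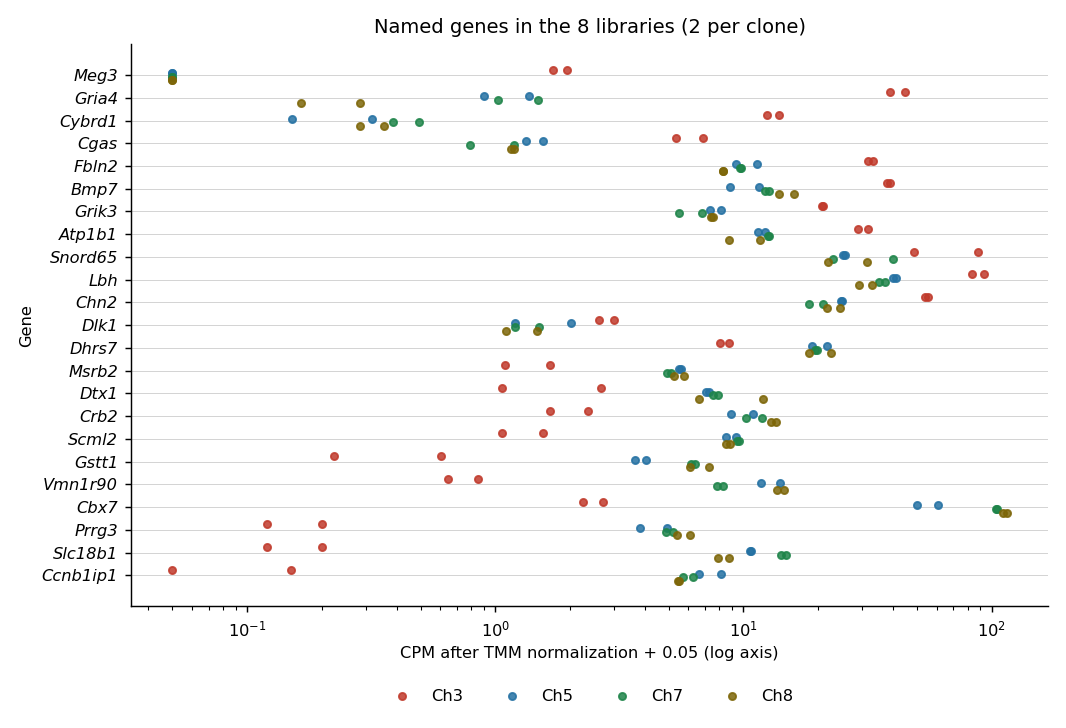
CPM plus 0.05 on a log axis (x axis) of the named genes in the 8 libraries, 1 point per library and 1 colour per clone. In each gene past the threshold the libraries of Ch3 lie on 1 side of all 6 others, from Gria4 at 39.1 CPM or more against 1.44 or less, to Ccnb1ip1 at 0.101 or less against 5.4 or more.

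Several genes expressed in the 3 other clones were close to silent in Ch3. Ccnb1ip1 (chromosome 14, 50789249 to 50795728), a ubiquitin ligase gene best known for meiosis, had 0.101 and 0 CPM in Ch3 and 6.58, 8.08, 5.68, 6.21, 5.44 and 5.4 in the others. Its 2 reads in Ch3 against 280 to 405 per other clone gave a ratio of 151 (95% counting interval 41.7 to 1248; edgeR adjusted p = 0.012). Slc18b1 (chromosome 10, 23796859 to 23827969), a vesicular polyamine transporter, had 0.151 and 0.0700 CPM in Ch3 and 10.5, 10.7, 14.8, 14.1, 8.72 and 7.86 in the others. It fell by 6.73 on the log2 scale (SE 0.56, edgeR adjusted p = 0.023), with 5 reads left in Ch3, while the other clones read both copies. Prrg3, on the X chromosome, fell by 5.58 (SE 0.40, edgeR adjusted p = 0.014), from 5.01 ± 0.689 CPM (SD, n = 3 clones) to 0.111.

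Cbx7 and Scml2 also fell. Cbx7 (chromosome 15, 79915804 to 79971143), a chromodomain subunit of Polycomb repressive complex 1, had 2.67 and 2.2 CPM in Ch3 and 50.1, 60.9, 105, 105, 111 and 115 in the others. It fell by 5.25 on the log2 scale (SE 0.54, edgeR adjusted p = 0.033). Both copies fell in Ch3, where it had 46 Cast and 46 129 reads. Ch5 was itself close to Cast only, with 2415 Cast and 45 129 reads, while Ch7 and Ch8 read both copies. In the 8 poly(A) libraries Cbx7 lay at 1.44 to 7.24 CPM, unnormalised, nearer to Ch3 than to the other clones, although the preparations differ. Scml2, a Polycomb-associated gene on the X chromosome, had 1.51 and 1.01 CPM in Ch3 and 8.48 to 9.54 in the others (log2 difference -2.89, SE 0.23, edgeR adjusted p = 0.019). Although it is X-linked, 11.3% to 15.4% of its allele-specific reads in Ch5, Ch7 and Ch8 were assigned to Cast.

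Other named genes fell as well. Dtx1, a Notch regulator, had 2.62 and 1.01 CPM in Ch3 and 8.01 ± 1.11 (SD, n = 3 clones) in the others, and Crb2, an apical polarity gene, 1.61 and 2.31 against 11.4 ± 1.68. Vmn1r90, a vomeronasal receptor gene, had 0.806 and 0.595 CPM against 11.6 ± 3.22, Gstt1, a glutathione transferase, 0.554 and 0.175 against 5.56 ± 1.53, and Msrb2, a methionine sulfoxide reductase, 1.61 and 1.05 against 5.31 ± 0.291. Their log2 differences ran from -4.10 in Vmn1r90 to -2.06 in Msrb2, with edgeR adjusted p-values of 0.035 to 0.046. Of the 16 lower genes on autosomes other than chromosome 12, 11 had fewer reads from both copies by at least 1.5-fold, 3 from the 129 copy only and 1 from the Cast copy only, and 1 had too few reads. Among the genes past the threshold, the largest difference by level was in ENSMUSG00000096349.1, which has no gene symbol. It had 3266 and 2740 CPM in Ch3 and 43.4 to 70.7 in the others. Its 129 reads were 21412 in Ch3 against 156 to 233, and its Cast reads 755 against 829 to 911. ENSMUSG00000106847.1, also without a symbol, had 0.201 and 0.105 CPM against 18.6 to 23.7, and was 99.4% to 99.7% Cast in the other clones.

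Most differences in allelic ratio off chromosome 12 did not appear as calls in total RNA. With at least 20 allele-specific reads in each clone, 9898 genes on the other autosomes were tested with edgeR's quasi-likelihood test on Cast and 129 reads, and 107 differed in Cast share (1.08%), 50 higher (0.505%) and 57 lower (0.576%) in Ch3. Genes were also sorted by their Cast share alone. Taking under 15% or over 85% Cast as monoallelic and 35 to 65% as biallelic, 26 genes were monoallelic in Ch3 and biallelic in the 3 others, 15 from Cast and 11 from 129. Of these, 22 passed the test of the share, and Oxld1, Zkscan4, Dtwd2 and Il33 did not. The same count was 11 for Ch5, 5 for Ch7 and 3 for Ch8, each against the other 3 clones, which was not tested.

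The promoters of genes with this pattern are shown for both allelic choices, Zfp422 and Rnf123 read from 129 and Ogfod2 from Cast, together with that of Cbx7, which fell from both copies. Each stretch is 300 bases, from 250 before to 50 after a transcription start of the gene, from RefSeq on GRCm38.p6, 5′ to 3′ on the strand of the gene. The capitals mark CG dinucleotides, the sites of DNA methylation, which was not measured here.
Zfp422: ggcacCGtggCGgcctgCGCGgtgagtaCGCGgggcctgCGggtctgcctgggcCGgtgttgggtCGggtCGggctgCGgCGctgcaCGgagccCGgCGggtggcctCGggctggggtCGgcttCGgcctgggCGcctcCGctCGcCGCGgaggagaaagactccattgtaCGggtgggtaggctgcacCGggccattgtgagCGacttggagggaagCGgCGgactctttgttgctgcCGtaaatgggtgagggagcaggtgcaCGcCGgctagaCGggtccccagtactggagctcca
Rnf123: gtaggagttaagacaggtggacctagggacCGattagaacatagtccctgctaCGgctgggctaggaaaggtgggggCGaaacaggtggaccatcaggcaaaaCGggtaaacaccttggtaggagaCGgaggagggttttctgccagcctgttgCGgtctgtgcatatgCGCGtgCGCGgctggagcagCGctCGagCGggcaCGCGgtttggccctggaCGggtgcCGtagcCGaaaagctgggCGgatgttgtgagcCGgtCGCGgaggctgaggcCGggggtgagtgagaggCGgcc
Ogfod2: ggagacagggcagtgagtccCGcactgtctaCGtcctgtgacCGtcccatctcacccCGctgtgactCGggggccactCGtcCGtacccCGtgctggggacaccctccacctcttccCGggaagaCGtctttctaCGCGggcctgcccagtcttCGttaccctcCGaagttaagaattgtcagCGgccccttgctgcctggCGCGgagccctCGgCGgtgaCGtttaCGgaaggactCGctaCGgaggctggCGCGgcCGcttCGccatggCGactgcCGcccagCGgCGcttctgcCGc
Cbx7: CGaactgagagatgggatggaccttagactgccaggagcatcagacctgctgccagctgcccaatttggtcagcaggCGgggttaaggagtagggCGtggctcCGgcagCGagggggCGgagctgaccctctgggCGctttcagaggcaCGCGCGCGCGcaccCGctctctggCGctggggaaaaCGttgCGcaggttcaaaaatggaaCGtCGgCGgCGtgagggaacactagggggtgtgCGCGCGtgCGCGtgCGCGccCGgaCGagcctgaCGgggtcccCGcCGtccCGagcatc

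The windows lie at chr6:116628652-116628951 (Zfp422, minus strand), chr9:108079252-108079551 (Rnf123, minus strand), chr5:124112071-124112370 (Ogfod2, plus strand) and chr15:79932597-79932896 (Cbx7, minus strand). Those of Zfp422, Rnf123 and Cbx7 lie inside the gene limits, whose 5′ ends are at 116628999, 108080352 and 79971143. The starts used for these genes are therefore not the outermost ones, and that of Cbx7 lies farthest inside. They hold 32, 24, 32 and 33 CG, where 9.52%, 19.98%, 9.52% and 8.56% of the 32851 promoters of the same length hold as many or more, and the median promoter holds 7. Of the 26 genes, 18 had a promoter in the RefSeq table, with a median of 16 CG, and the 6004 genes biallelic in all 4 clones and matched in it had a median of 22. A CG count is read the same on both strands and says nothing of methylation.

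The total RNA of these genes was lower in Ch3 in almost every case, while the copy that stayed expressed varied around the level of the other clones. Their median log2 difference in all reads was -1.04 (interquartile range -1.26 to -0.71), 25 of 26 lay below 0, and the reads of the expressed copy had a median of -0.09. That copy differed by more than 0.5 on the log2 scale in 10 of the 26, from -1.38 in Il33 to 1.23 in Crispld2. In 23 (88.5%) both libraries of Ch3 lay below all 6 others, against 13.3% of the 7382 genes biallelic in all 4 clones, whose median was -0.04. The Cast share chose these genes and their total contains the reads of the allele that chose them, so the totals are a description. By edgeR, 1 of the 26 passed the threshold in total RNA, and 22 had an unadjusted p under 0.05. DESeq2 called 17 of them.

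**Figure D3:**
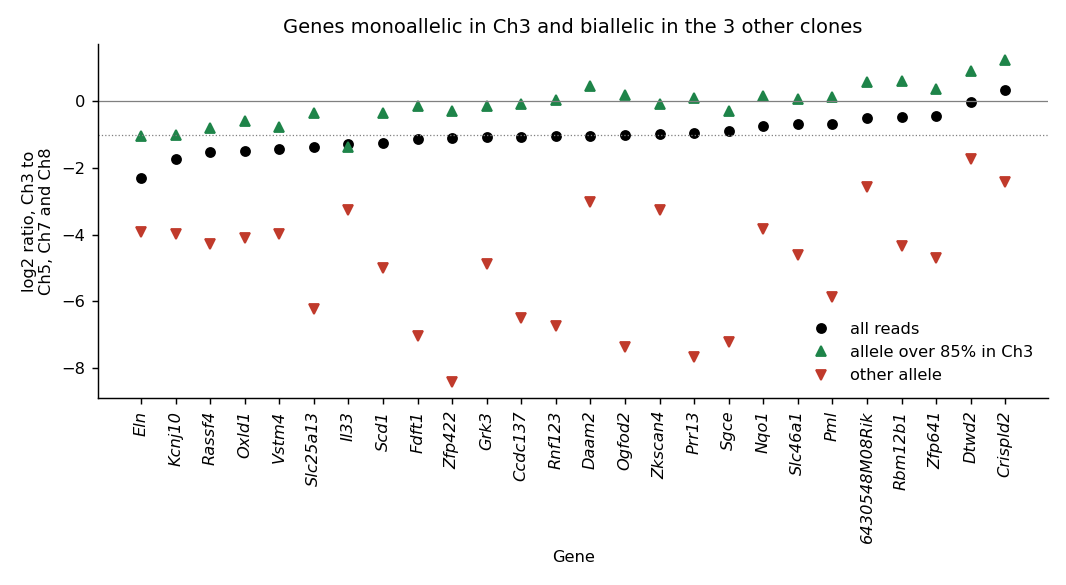
Log2 ratio of Ch3 to the 3 other clones (y axis) for each of the 26 genes monoallelic in Ch3 and biallelic in the others, ordered by the ratio in all reads (circles), with the reads of the allele that Ch3 kept (upward triangles) and of the other allele (downward triangles); the dotted line marks -1. All reads centre on -1.04 and the kept copy on -0.09, while the other allele runs from -8.41 in Zfp422 to -1.74 in Dtwd2.

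Zfp422 (chromosome 6), a zinc finger gene whose promoter is shown above, was the one that also passed in total RNA. It had 32.2 and 30.7 CPM in Ch3 and 64.2, 66.6, 65.9, 69.1, 59.2 and 76.2 in the others, a log2 difference of -1.10 (SE 0.11, edgeR adjusted p = 0.033). Its Cast share in Ch3 was 0.207% of 483 reads (Wilson interval 0.0366 to 1.16%), against 49.3%, 44.6% and 44.9%. Fdft1 (chromosome 14, 63145150 to 63181687), squalene synthase of the sterol pathway, had Cast shares of 0.549% and 1.15% in the libraries of Ch3 and 52.7% to 59.7% in the others. The difference in share passed (edgeR adjusted p = 1.83e-08), and its total of 45.3 CPM against 99.1 ± 12.9 (SD, n = 3 clones) did not (edgeR adjusted p = 0.070). Rnf123 (chromosome 9, 108051672 to 108080352), a ubiquitin ligase gene, had a Cast share of 0.909% in Ch3 (Wilson interval 0.25 to 3.25%) and 47.6%, 59.5% and 59.7% in the others, with totals of 17.0 CPM against 35.3 ± 2.53 (edgeR adjusted p = 0.062). Scd1, the stearoyl-CoA desaturase, was 3.89% Cast in Ch3 over 2160 reads and 47.7% to 52.3% in the others.

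Genes read from the Cast copy in Ch3 showed the same pattern. Ogfod2 had 97 Cast reads and 0 129 reads in Ch3 (100% Cast, Wilson interval 96.2 to 100%) and 53.1%, 52.2% and 47.6% Cast in the others. Ccdc137 was 99.0% Cast in Ch3 and 47.9% to 51.2% in the others, with 14.8 and 17.3 CPM against 31.3 to 36.4. Rbm12b1 (chromosome 4, 12138957 to 12148922), an RNA-binding protein gene, was 97.0% Cast against 43.6% to 48.4% (edgeR adjusted p of the share 0.00078), while its total differed by -0.48 on the log2 scale. In the 8 poly(A) libraries, 18 of the 26 genes were monoallelic in at least 1 library, 8 of them from Cast in 1 library and from 129 in another, and 5 were biallelic in every library with a value, namely Ogfod2, Pml, Ccdc137, Zkscan4 and Fdft1.

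Other named genes differed in share without being biallelic in all of Ch5, Ch7 and Ch8. S100a10 (chromosome 3, 93555117 to 93564645), the partner of annexin A2, was 0.431% Cast in Ch3 (Wilson interval 0.118 to 1.56%) and 68.4%, 95% and 65.5% in Ch5, Ch7 and Ch8. Its total was 11.9 CPM in Ch3 and 41.0 ± 8.40 (SD, n = 3 clones) in the others (edgeR adjusted p = 0.073). Arpin (chromosome 7, 79925359 to 79935264), an inhibitor of the Arp2/3 complex, was 100% Cast in Ch3 and 26.4% to 31.8% in the others. Acsl5, an acyl-CoA synthetase, was 97.6% Cast against 14.9%, 51.5% and 57.6%, and Zfp974 was 3.33% Cast against 46.4%, 74.5% and 46.8%.

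The converse pattern needs all 3 other clones to be monoallelic together, so its count cannot be set against that of the pattern above. In 4 genes Ch3 was biallelic and the 3 others monoallelic, namely Ppm1k, Fbln2, Mgmt and Csdc2, and the share passed the test in 3 of them and not in Csdc2. Ppm1k (chromosome 6, 57506502 to 57535552), a mitochondrial phosphatase of branched-chain amino acid breakdown, was 54.5% Cast in Ch3 (Wilson interval 47.7 to 61.0%) and 0.581%, 1.88% and 0% in the others, where 0 of 204 reads were Cast in Ch8. The libraries of Ch3 differed for this gene, at 41.0% and 66.4%. Mgmt, the DNA alkyltransferase, had 14.3 and 13.2 CPM in Ch3 and 0.840 to 8.89 in the others, with 53.7% Cast against 87.5% to 96.7%.

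**Figure D4:**
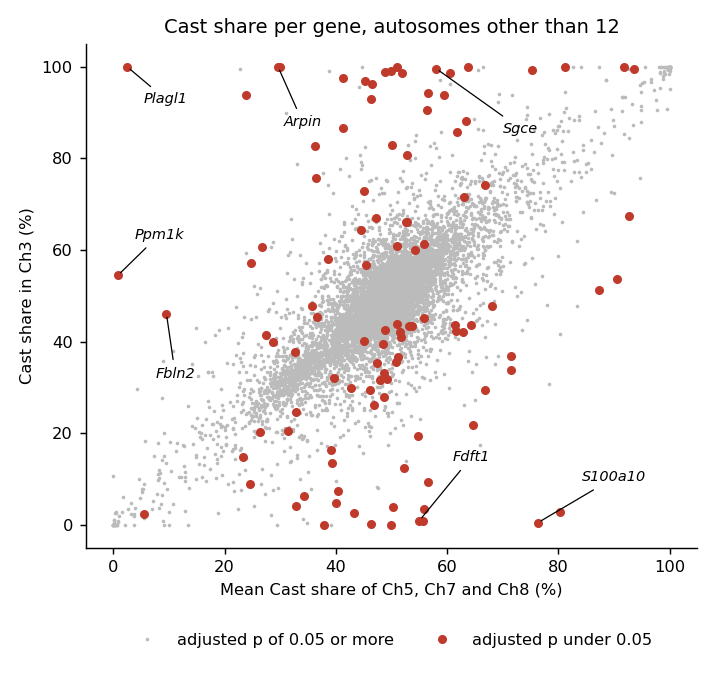
Each point is 1 of the 9898 genes tested on the autosomes other than 12, by its mean Cast share in Ch5, Ch7 and Ch8 (x axis, percent) and its Cast share in Ch3 (y axis, percent), with the 107 genes past the threshold as larger points. Most genes lie near the diagonal, while Fdft1 stands at 0.901% in Ch3 against 55.0%, Arpin at 100% against 29.6% and Ppm1k at 54.5% against 0.819%.

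Among the imprinted genes other than Meg3 and Dlk1, some had the same allele in all 4 clones, some separated Ch3 from the others, and Impact, Peg12, Mkrn3, Nnat and Zrsr1 were between 35 and 65% Cast in all 4. For Nnat few reads were allele-specific, 35 from Cast and 21 from 129 of 13898 in Ch3. The other clones had 43 to 55 from Cast and 69 to 73 from 129, of 29523 to 39340 reads. Ndn was 4.35% Cast in Ch5, over 23 allele-specific reads, and 50.6% to 52.7% in Ch3, Ch7 and Ch8. Mest, Peg3, Nap1l5 and Airn, which are normally read from the paternal copy, were at 98.0% Cast or more in every clone. Sgce and Peg10 are neighbours on chromosome 6 in 1 imprinted domain and are normally paternal. Sgce was 99.6% Cast in Ch3 (Wilson interval 97.8 to 99.9%) and 55.0%, 62.8% and 56.3% in the others (edgeR adjusted p of the share 5.17e-06), with 23.3 and 22.0 CPM against 37.2 to 44.6. Peg10 was 99.9% Cast in Ch3 and 81.6%, 82.3% and 79.5% in the others (edgeR adjusted p 5.63e-10). Snrpn was 99.5% against 91.7% to 96.4% (edgeR adjusted p 0.0078).

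Plagl1, a zinc finger gene normally read from the paternal copy, was read from opposite alleles. All 82 allele-specific reads of Ch3 were Cast (Wilson interval 95.5 to 100%), while the Cast share was 6.12%, 1.41% and 0% in Ch5, Ch7 and Ch8 (edgeR adjusted p of the share 2.12e-05). Its total did not separate the clones, at 2.87 and 3.67 CPM against 1.92 to 3.14. H13, which has both imprinted and biallelic isoforms, was 57.2% Cast in Ch3 and 22.5% to 27.6% Cast in the others, with 38.2 and 33.6 CPM against 73.9 to 81.6 (log2 difference -1.16, edgeR adjusted p = 0.031). The 129 reads of H13 were 245 in Ch3 and 967 to 1120 in the other clones, and its Cast reads 328 against 295 to 368. Over the 19 paternally expressed genes tested, 0 passed in total RNA by edgeR, 4 had an unadjusted p under 0.05, and DESeq2 called 3.

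A block of neighbouring genes on chromosome 8 shared a shift in allele share. It was chosen after its values were seen, from windows of 9 neighbouring genes whose median Cast share differed by at least 8 percentage points (43 of 9754 windows, 19 of them on chromosome 18, 14 on chromosome 8 and 10 elsewhere). The block runs over 12 genes from Hsbp1 to Zdhhc7 (chromosome 8, 119344538 to 120103900, 759 kb). Its median Cast share was 34.3% in Ch3, at 33.6% and 33.9% in the libraries of Ch3, and 49.6%, 50.3% and 50.7% in Ch5, Ch7 and Ch8, at 47.5% to 52.1% per library. In the 8 poly(A) libraries it was 47.2% to 51.3%. The 129 reads of the block were higher in Ch3 by a median of 1.01 on the log2 scale, its Cast reads differed by a median of 0.01, and all reads by 0.55. Over the 54 genes beside the block these medians were 0.02, -0.01 and 0.02.

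In the block, 9 of the 12 genes passed the test of the share, where 1.08% of all genes did, and 11 had both libraries of Ch3 above all others in total, where 10.5% of all genes did. The block was chosen by its share, and its totals contain the same 129 reads that shifted the share. Neighbouring genes are not independent replicates, so both counts are descriptions. None passed in total RNA by edgeR (0 of 12, adjusted p from 0.076 to 0.80, with 11 at an unadjusted p under 0.05), and DESeq2 called 4. Mbtps1, the site-1 protease of sterol regulation, had 233 and 248 CPM in Ch3 and 158, 167, 157, 157, 163 and 175 in the others. Its Cast share was 31.8% (Wilson interval 30.2 to 33.3%) against 48.8% to 49.7%. Hsbp1, which binds heat shock factor, had 113 and 120 CPM against 70.9 to 86.1, with a Cast share of 29.3% (Wilson interval 28.0 to 30.7%) against 45.8% to 46.6%. Crispld2, next to the last gene of the block, differed from the rest, with Cast reads lower by -2.43 and 129 reads higher by 1.23 on the log2 scale. Without Crispld2 and Klhl36, the 10 other genes had log2 differences of 0.40 to 0.71 in all reads, 0.56 to 1.25 in 129 reads and -0.14 to 0.22 in Cast reads. DNA copy number was not measured here.

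**Figure D5:**
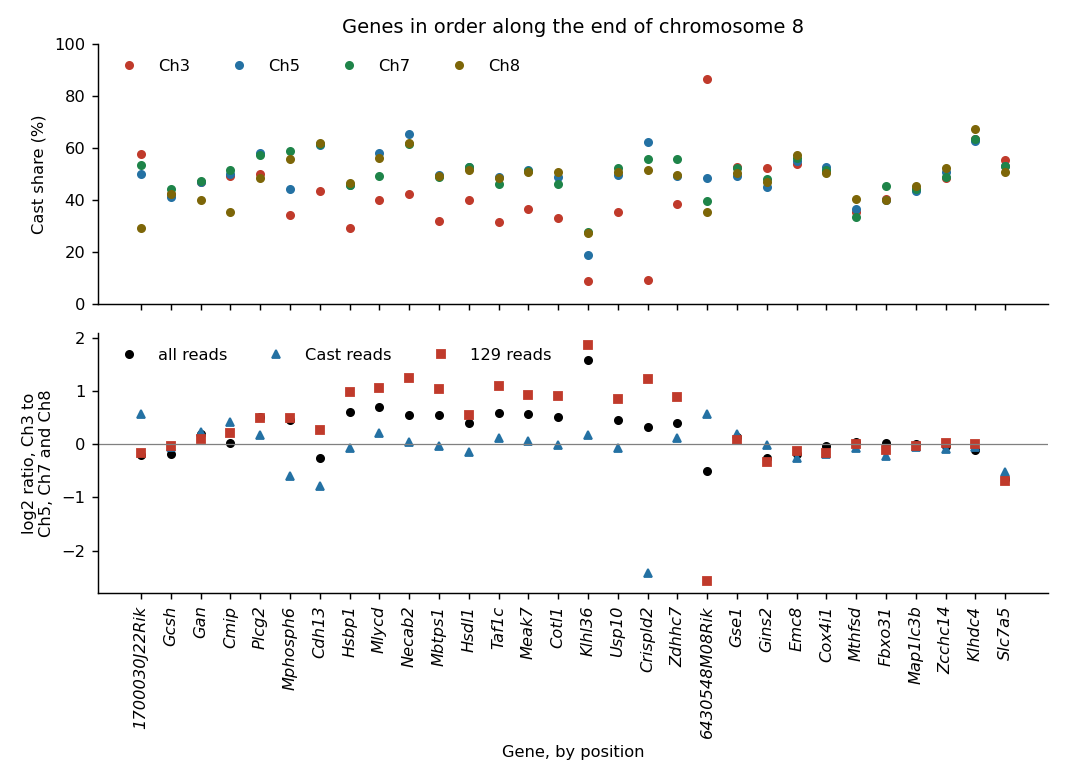
Genes of chromosome 8 in their order around the block (x axis), with the Cast share in percent of each clone above and the log2 ratio of Ch3 to the others in all, Cast and 129 reads below. The 12 genes from Hsbp1 to Zdhhc7 have a median Cast share of 34.3% in Ch3 and 49.6% to 50.7% in the others; Mphosph6 and Cdh13 before the block and 6430548M08Rik after it also stand apart in Ch3, and most genes farther out lie close to the other clones.

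Lists of genes for the state of the cells had few or no members past the threshold. Of 33 cell cycle genes, 0 passed by edgeR, 20 had an unadjusted p under 0.05 and DESeq2 called 9. Their median log2 difference was -0.27, and 16 lay below all other libraries and 5 above, against 10.8% and 10.5% of all genes. Their summed level went the other way, with 6919 to 6998 CPM in Ch3 and 6641 to 6872 in the others. Ccnb1, the mitotic cyclin, had 146 and 135 CPM in Ch3 and 193 to 246 in the others, and Top2a, a topoisomerase of dividing cells, 426 and 396 against 498 to 646. The 5 higher members were Ccnd1 and Ccnd2, the D cyclins, and the inhibitors Cdkn1a, Cdkn2a and Cdkn2b. Cdkn1a had 345 and 319 CPM against 186 to 258 (edgeR adjusted p = 0.29).

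Of the 25 Notch pathway genes tested, 0 passed by edgeR, 5 had an unadjusted p under 0.05 and DESeq2 called 3. Dll3, a Notch ligand of neural progenitors, had 6.90 and 4.86 CPM in Ch3 and 12.2 to 19.4 in the others (log2 difference -1.47, edgeR adjusted p = 0.053). Notch1, the receptor, had 386 and 362 CPM against 483 to 720, and Hes5, its target, 21.3 and 12 against 21.4 to 46.9. Dtx1 is not on that list. Among the 14 neural progenitor markers 7 lay below and 2 above all other libraries (10.8% and 10.5% of all genes), with a median of -0.25, and among 7 mesenchymal markers 4 lay below, with summed levels of 10.1 to 11.4 CPM against 15 to 20.7. By edgeR 0 of either list passed, with 6 and 4 at an unadjusted p under 0.05, and DESeq2 called 2 and 0. Nes and Sox9 were the 2 higher neural progenitor markers.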

How the data were processed

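RNA-seq of 4 NPC clones was analysed, with 2 libraries of each. The authors aligned stranded paired-end reads to GRCm38 masked at strain SNPs, assigned them to alleles with SNPsplit and counted them per gene. The submitters' processing notes name TopHat2 (2.1.0), Bowtie2 and featureCounts (1.5.1). The deposited counts, whole numbers without normalisation, list the total reads of 50600 genes and those of each allele, of which 32722 could be given a symbol. The deposited Cast fractions were not used. Of the 19248 genes tested, 14909 had a RefSeq position on GRCm38.p6. Reads shared by paralogs or pseudogenes were not separated further. Libraries of a clone differed by more than sampling noise and were summed.

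Totals were compared with edgeR (4.0.16, quasi-likelihood test, TMM, filterByExpr) on clone sums, and Cast shares with an edgeR interaction of allele and clone group, where every clone had 20 or more reads assigned to an allele. The adjusted p threshold was 0.05. The members and lists were chosen with earlier results of these data known. Named genes were the Dlk1-Dio3 genes, the 10 largest changes in each direction off chromosome 12 and up to 6 on it, among genes past the threshold with no overlap of libraries, a mean of 5 CPM or more in the higher group and a RefSeq symbol and position (predicted genes left out), list members past the threshold, and the 8 largest changes in Cast share with 50 or more allelic reads per clone. Other genes were named from the lists or as examples, after their values were seen. A gene lower in Ch3 on chromosome 12 is counted and not reported here.

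On simulated data, the test of totals recovered 151 of 200 genes changed by a log2 difference of 2 and called 18 unchanged genes, among 18714 tested. At a difference of 4 it recovered 186 of 200 and called 24 unchanged genes, among 18706 tested. The test of shares recovered 77 of 200 genes at a log2 odds ratio of 1 and 174 of 200 at 2, among 9898 genes. It called 2 and 7 unchanged genes. The spread of shares between the simulated clones was set in advance and not estimated from these data, so these counts hold for that spread only. Alternatives were 8 libraries as separate samples, the replicate number as a block, clone as a random block in limma (3.58.1), DESeq2 (1.42.0), RLE factors, TMM factors without chromosome 12, no filter on low counts, other read minimums, and leaving out each library or clone. A fit to protein-coding and lncRNA genes was added after seeing the data. Statistics ran in R 4.3.3, and tables and figures in Python 3.11.15 with pandas 2.3.3, numpy 2.4.6, matplotlib 3.10.9 and scipy 1.17.1.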

Additional observations from a re-analysis of the deposited data

Results flagged for a closer look

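Among the 6 libraries of Ch5, Ch7 and Ch8, a single library lay apart from the other 5 for 3 of 30 named genes checked. This was judged by Dixon's test, which flags about 1 in 20 groups of independent values by chance. Libraries of the same clone are not independent, so that rate need not hold for these groups. Atp1b1 had 8.72 CPM in the first library of Ch8 and 11.4 to 12.6 in the other 5. Dtx1 had 11.9 CPM in the second library of Ch8 and 6.57 to 7.84 in the others, and Rnf123 29.0 CPM in the first library of Ch5 and 35.2 to 38.8 in the others. In each gene the library lay on the same side of Ch3 as the rest of its group.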

How the results depend on the processing

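Numbers of genes are given in the order higher and lower on chromosome 12, then higher and lower elsewhere, where the reported values are 2, 2, 18 and 19. They were 25, 29, 328 and 392 with 8 libraries as separate samples, 17, 14, 183 and 142 with clone as a random block in limma, 14, 15, 133 and 229 with DESeq2, 10, 7, 101 and 106 without a filter, and 0, 1, 2 and 5 among protein-coding and lncRNA genes only, an alternative chosen after seeing the data. RLE factors and TMM factors without chromosome 12 left all 4 at the reported values. Leaving out 1 library or clone gave 1 to 8, 1 to 5, 3 to 90 and 10 to 85. With the replicate block the values were 19, 24, 239 and 292. The replicate numbers did not pair the samples (correlations of deviations from -0.243 to 0.374), so the block has no meaning in the design. The 107 genes that differed in Cast share off chromosome 12 became 197 with 8 libraries, 186 with the replicate block, and 112 and 102 with minimums of 10 and 50 reads, and 75 to 191 when 1 library or clone was left out. The chromosome 12 median of all reads stayed between -0.048 and -0.0088 under every setting, the ends being those without the first and without the second library of Ch3. Of the single named genes, Zfp974 changed sign, from -0.23 to 0.033 without clone Ch5 (range over left-out libraries and clones -0.557 to 0.033), and Ccnb1ip1, Cybrd1, Fbln2, Prrg3, Scml2 and Slc18b1 were called under every alternative. Calls were lost under 7 alternatives by Dhrs7 and Msrb2, under 6 by Chn2, under 5 by Meg3, Bmp7, Cgas, Dtx1, Grik3 and Lbh, under 4 by Gstt1, under 3 by Atp1b1 and Snord65, and under 1 or 2 by Crb2, Vmn1r90, Cbx7, Gria4 and, in share, Acsl5 and Zfp974. The causes were not tested. Genes with few reads are limited by depth: Meg3, Dlk1 and Ccnb1ip1 rest on 2 to 136 reads in Ch3.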

Other observations

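In Hoxb6 and Hoxb9, of the Hox B cluster on chromosome 11, the values of the 4 clones lay apart, although neither passed the test of Ch3 against the others. Hoxb6, a positional regulator, had 1.01 and 1.05 CPM in Ch3, 4.02 and 4.54 in Ch5, 31.6 and 28.9 in Ch7, and 45.7 and 47.1 in Ch8. The libraries of a clone lay close together, and the clones far apart. Hoxb9 followed the same order, with 0.957 and 1.19 CPM in Ch3, 2.53 and 1.77 in Ch5, 9.64 and 12 in Ch7, and 19.2 and 18.5 in Ch8. Of 19 Hox genes tested, 6 lay below all other libraries in Ch3 and 1 above, against 10.8% and 10.5% of all genes, and 0 passed by edgeR (5 at an unadjusted p under 0.05, 3 by DESeq2). Dbx2, a homeobox gene of ventral neural tube progenitors, had 0.252 and 0.245 CPM in Ch3 against 7.80 to 25.7 (edgeR adjusted p = 0.073). Nkx2-2 had 5.29 and 4.44 CPM against 0.222 to 1.77 (edgeR adjusted p = 0.22). En2, a midbrain and hindbrain factor, had 6.65 and 6.61 CPM against 1.25 to 2.69 (edgeR adjusted p = 0.093).

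Outside the block on chromosome 8, its neighbours Cdh13, a cadherin gene, and 6430548M08Rik differed as single genes. Cdh13 was 43.5% Cast in Ch3 and 61.0% to 61.9% in the others, with totals that overlapped. 6430548M08Rik was 86.5% Cast in Ch3 (Wilson interval 80.6 to 90.9%) and 35.5% to 48.5% in the others.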
